A study of Mus musculus with 12 samples.

Results

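The Serinc genes encode serine incorporators, a small family of proteins that cross the membrane many times. They were taken by gene symbol, and all 5 mouse members (Serinc1 to Serinc5) were found among the 46882 gene names of a liver count table. The family was chosen by its values: the fold change of Serinc2 between KO and WT in these same libraries was among the lowest, so every KO against WT value of a member below is a description that supports nothing. The one call counted among members is printed only beside its background. Liver RNA came from 6 wild-type mice (WT) and 6 A1cf -/- mice (KO), all C57BL/6 and aged 6-8 weeks. The allele is named only as A1cf -/-, and how or in which cells the gene was removed is not given in the sources used here. A1CF binds AU-rich RNA in hepatocytes and enterocytes and is known as a partner of the APOBEC1 deaminase in editing of Apob mRNA.

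SERINC proteins were named for a proposed part in bringing serine into the membrane for phosphatidylserine and sphingolipid synthesis. They are better known from virology: SERINC3 and SERINC5 that enter retrovirus particles lower their infectivity, and the Nef protein of HIV removes them from the cell surface. Family members have also been described as scramblases, which move phosphatidylserine and other lipids between the leaflets of a membrane. SERINC1 and SERINC3 are broadly expressed, while much less is known of SERINC2 and SERINC4.

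The libraries held 22129092 to 51082317 counts each, and 13706 genes were abundant enough to be tested. The targeted transcript followed the labels, with A1cf at 47.9 to 53.8 CPM (library counts scaled to a common size, with TMM factors) in WT and 8.20 to 12.6 CPM in KO, so that no library overlapped. Hepatocyte markers summed to 77915 to 107159 CPM per library over 7 markers, none of the 7 being at 0 in any library. Most of this was Alb, with means of 69601 CPM in WT and 66267 CPM in KO. Transcripts of the acute phase, the liver's response to inflammation, summed to 61064 CPM in WT 590, 44952 CPM in WT 601 and 95141 CPM in KO 602, against 11597 to 29406 CPM in the other libraries. Because these are bulk samples, fewer cells of a type and less RNA per cell cannot be told apart.

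The 5 genes lie on 4 chromosomes, none of them chromosome 19, which carries A1cf. On mm10, Serinc1 spans chromosome 10 from 57515774 to 57532530 (minus strand), Serinc2 chromosome 4 from 130253495 to 130279205 (minus strand), Serinc3 chromosome 2 from 163623272 to 163645131 (minus strand), Serinc4 chromosome 2 from 121439059 to 121456781 (minus strand) and Serinc5 chromosome 13 from 92611138 to 92711944 (plus strand). The members are distant relatives at the nucleotide level. Between pairs of members, aligned coding bases were 60.4% to 67.3% identical, and the longest run of identical bases in transcripts of 2 members was 21 bases, between Serinc2 and Serinc3.

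Since A1CF binds RNA, the 3′ UTRs of the members were searched for the AU-rich 7-base motif described for A1CF in vitro, written as DNA in 4 spellings. One spelling is ATAATTA, another has the letters ATAATTG, the next is spelled TTAATTA, and the last is written as TTAATTG. Only the sense strand of the longest complete coding transcript of each gene was read (GENCODE M21, GRCm38). The 6 matches are shown because they set Serinc2 beside the other abundant members. Each is written 5′ to 3′ with the motif in capitals, and the order within a gene follows the transcript.
Serinc1, chr10:57516805-57516834 (minus strand): ttttagaaacaTTAATTAagtgtatggctg
Serinc1, chr10:57516065-57516094 (minus strand): aggccaggaggATAATTAacttgaggaata
Serinc1, chr10:57515947-57515976 (minus strand): tagtatgccacTTAATTAagataaaaatgc
Serinc3, chr2:163624666-163624695 (minus strand): cataaaagtacTTAATTAaaatagatattt
Serinc3, chr2:163623427-163623456 (minus strand): ttgtgaagcagATAATTGtggcccttaagc
Serinc5, chr13:92710828-92710857 (plus strand): tcacgccagtgTTAATTGcccccttcccaa

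The Serinc2 3′ UTR, at 435 bases the shortest of the 5 and with 43.2% A and T, held none of the 4 spellings, and neither did that of Serinc4 (844 bases). Among tested genes with a 3′ UTR within 10% of its length, 12.2% of 500 held the motif. The same share was 31.4% of 874 genes at the length of Serinc1 (1383 bases), 47.8% of 855 at that of Serinc3 (2169 bases) and 68.4% of 583 at that of Serinc5 (3810 bases). A match describes letters only, and no match says only that these letters are not in the annotated 3′ UTR.

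Serinc2 was the member that stood lower without A1cf. Its transcript was at 22.9 CPM in WT 573, 15.1 in WT 590, 31.1 in WT 601, 19.4 in WT 776, 28.7 in WT 777 and 30.3 in WT 778. In KO it was at 9.12 CPM in KO 574, 5.95 in KO 584, 7.22 in KO 588, 8.50 in KO 591, 14.6 in KO 602 and 6.06 in KO 780. Every KO library lay below every WT library, although the highest KO value (KO 602) and the lowest WT value (WT 590) were close. The raw counts behind these values were 412 to 943 in WT and 139 to 367 in KO.

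Serinc2 averaged 24.6 ± 6.51 CPM over the WT livers and 8.57 ± 3.21 CPM over the KO livers (SD, n = 6 each), so that KO livers held 34.9% of the WT level. The fitted log2 fold change was -1.52 with a standard error of 0.24 and a 95% interval of -2.04 to -1.01. It was lower than the value of all but 0.124% of tested genes, for which the median log2 fold change was 0.01. Both groups varied widely around their means, with a coefficient of variation of 26.5% in WT and 37.4% in KO, against 10.4% to 19.6% for Serinc1, Serinc3 and Serinc5 in either group.

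**Figure D1:**
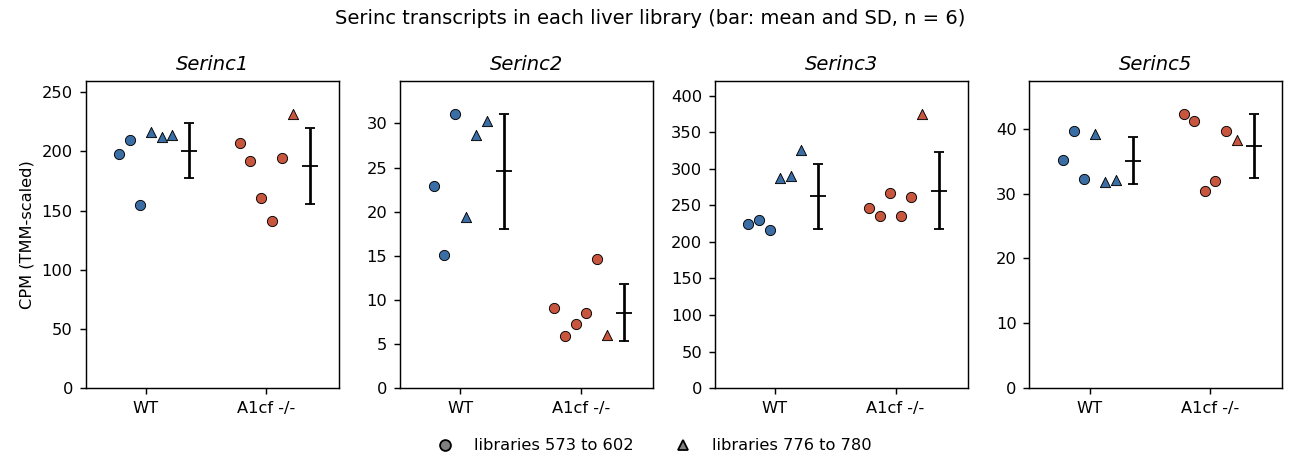
TMM-scaled CPM (vertical axes, each starting at 0) of 4 Serinc transcripts in each WT and A1cf -/- liver library; circles are libraries 573 to 602, triangles are libraries 776 to 780, and the bars give the mean and SD of 6 libraries. Serinc2 points do not overlap between genotypes (15.1 to 31.1 against 5.95 to 14.6 CPM), while those of the other members do.

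Of the 4 tested members, 1 (Serinc2, lower) had an edgeR quasi-likelihood adjusted p under 0.05 over all genes, where 3.82% of tested genes passed in either direction and 2.09% were lower in KO. Its groups did not overlap, as for 3.30% of tested genes, 1.97% with KO below WT. Nothing is read from these counts, because this contrast chose the family.

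The libraries fall into the label numbers 573 to 602 (3 WT and 5 KO) and 776 to 780 (3 WT and 1 KO). Serinc2 was lower in KO in both ranges, by a difference in mean log2 CPM of -1.34 in the first and -2.07 in the second, which rests on KO 780 alone. Fitted on libraries 573 to 602 only, the log2 fold change of Serinc2 was -1.34 ± 0.30 (SE). No member was called in that fit, where 57 of all 13989 tested genes were. It lay between -1.73 (without KO 602) and -1.44 (without KO 584) in the 12 fits that left out 1 library, and was -1.78 without the 3 libraries high in acute phase transcripts. Of these 3 libraries, WT 601 had the highest WT value of Serinc2 and WT 590 the lowest, while KO 602 had the highest KO value. The part of the acute phase in the Serinc2 values was not tested.

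Serinc1, one of the abundant and broadly expressed members, overlapped between the genotypes. It was at 197 CPM in WT 573, 210 in WT 590, 155 in WT 601, 216 in WT 776, 212 in WT 777 and 213 in WT 778, and at 207 in KO 574, 192 in KO 584, 160 in KO 588, 141 in KO 591, 194 in KO 602 and 232 in KO 780. The means were 201 ± 23.5 CPM in WT and 188 ± 32.4 CPM in KO (SD, n = 6 each). The log2 fold change was -0.10 ± 0.12 (SE), with a 95% interval of -0.36 to 0.16.

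Serinc3 was the most abundant of the tested members in all 12 libraries. In WT it was at 225 CPM in WT 573, 230 in WT 590, 216 in WT 601, 288 in WT 776, 289 in WT 777 and 326 in WT 778. In KO it was at 246 CPM in KO 574, 235 in KO 584, 267 in KO 588, 236 in KO 591, 261 in KO 602 and 375 in KO 780. Taken over all libraries the genotypes overlapped, with means of 262 ± 44.7 and 270 ± 53.0 CPM (SD, n = 6 each) and a log2 fold change of 0.04 ± 0.14 (SE; 95% interval -0.25 to 0.34). Its sign turned without WT 601 (-0.01), without KO 780 (-0.08) and without the 3 libraries high in acute phase transcripts (-0.05).

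What separated Serinc3 was the number range of the libraries, not used in choosing the family. All 3 WT libraries from 776 to 778 lay above the 3 from 573 to 601, and KO 780 lay above the 5 other KO libraries. With genotype and number range as terms of 1 fit, Serinc3 was higher in libraries 776 to 780 by 0.49 ± 0.08 on the log2 scale (SE, 4 against 8 libraries; edgeR adjusted p = 0.0084). In that fit 4.36% of tested genes passed for the number range, and of the members only Serinc3 did. The other range terms were 0.26 ± 0.12 for Serinc1, -0.05 ± 0.29 for Serinc2 and -0.02 ± 0.11 for Serinc5 (log2, SE; adjusted p-values of 0.22, 0.94 and 0.94 in the same test). Within each number range the KO values of Serinc3 lay above the WT values (216 to 230 against 235 to 267 CPM, and 288 to 326 against 375 CPM in KO 780 alone). The KO minus WT difference was 0.20 ± 0.07 (log2, SE) with the range as a term, 0.16 ± 0.10 in libraries 573 to 602 and 0.04 ± 0.14 without the term. This fit was chosen after the values had been seen, and what the number ranges stand for is not stated in the labels.

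Serinc5, the member best known for its action on retrovirus particles, was at 31.8 to 39.7 CPM in WT (median 33.7) and at 30.4 to 42.3 CPM in KO (median 38.9). These groups overlapped almost entirely. Means were 35.0 ± 3.63 and 37.3 ± 4.95 CPM (SD, n = 6 each), and the log2 fold change was 0.09 ± 0.10 (SE; 95% interval -0.12 to 0.30). The intervals of Serinc1, Serinc3 and Serinc5 include 0 and leave room for changes within their bounds, so they do not show that these transcripts were equal.

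Serinc4 could not be read in this table. It had 1 count in WT 776, 1 in KO 780 and 0 in the other 10 libraries, where a count of 0 allows up to 0.059 to 0.131 CPM (counting error only). However, 4584 of its 4606 exonic bases (99.5%) also belong to exons of Ell3, Serf2 or Hypk in the authors' annotation. The counting command sets no option for strand or for fragments that overlap several genes, and by that tool's default such fragments are counted for none, which leaves 22 bases of Serinc4 to itself. Its counts therefore do not show whether the transcript was present. Of the other members, Serinc3 shared 134 bases (3.49%) with 0610039K10Rik and the remaining 3 shared none.

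Levels of different genes were compared per kilobase of exonic length (CPM per kb). In WT the order was Serinc3 (68.3 ± 11.6), Serinc1 (39.0 ± 4.56), Serinc2 (10.6 ± 2.81) and Serinc5 (6.59 ± 0.68; CPM per kb, SD, n = 6). Serinc3 exceeded 94.8% of tested genes on this scale, Serinc1 91.5%, Serinc2 77.2% and Serinc5 68.0%.

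Within WT libraries the log2 difference between members was tested for 10 pairs with an exact two-sided sign-flip permutation test over 6 libraries, whose smallest p is 0.031. Serinc3 stood above Serinc1 in 6 of 6 WT libraries by 0.80 ± 0.18 on the log2 scale (SD), and Serinc1 above Serinc2 by 1.90 ± 0.52 (exact p = 0.031 each; adjusted over 10 pairs, 0.035). Serinc2 and Serinc5, the neighbours at the low end, did not separate: Serinc2 was higher in 5 of 6 WT libraries, by 0.64 ± 0.55 (log2, SD; exact p = 0.094, adjusted 0.094), with WT 590 the exception. The 3 pairs of Serinc3 or Serinc1 with a lower member that are not named here also reached the smallest p, and the 4 pairs with Serinc4 are not interpreted. In CPM without length scaling, Serinc2 was below Serinc5 in every WT library. Their order per kb in WT therefore rests on their exonic lengths (2319 bases for Serinc2 and 5316 for Serinc5). In KO livers the order of Serinc2 and Serinc5 per kb was the other way round, with Serinc2 below Serinc5 in 6 of 6 libraries (3.70 ± 1.38 against 7.02 ± 0.93 CPM per kb). This reversal per kb follows from the difference that chose the family and is a description.

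**Figure D2:**
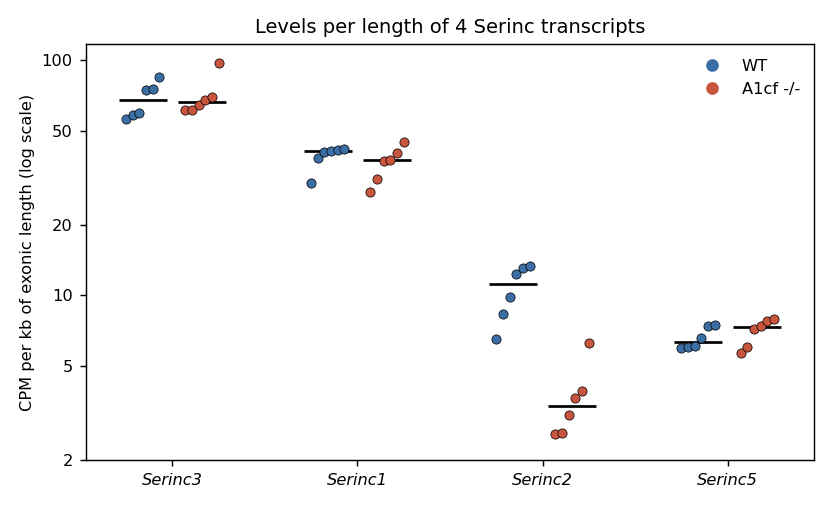
CPM per kb of exonic length (vertical axis, log scale) of 4 Serinc transcripts; each point is 1 library (6 WT, 6 A1cf -/-) and lines mark medians. Serinc2 lies mostly above Serinc5 in WT (5 of 6 libraries) and below it in every KO library. In CPM without length scaling, Serinc2 is below Serinc5 in every library of both groups.

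Summed over the 5 members, the family stood at 124 ± 15.4 CPM per kb in WT and 117 ± 18.6 in KO (SD, n = 6 each), ranges that overlapped (106 to 145 and 98.5 to 152). Since Serinc4 could not be read, these sums and the shares below cover in effect only the other members. Without Serinc2 the sums were 114 ± 15.01 and 114 ± 18.8 CPM per kb. Serinc2 made up 5.68% to 12.7% of the sum in WT libraries and 1.71% to 5.27% in KO libraries. Serinc3 supplied 51.6% to 58.3% in WT and 55.2% to 64.0% in KO, so it remained the main one of the readable Serinc transcripts in every library.

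**Figure D3:**
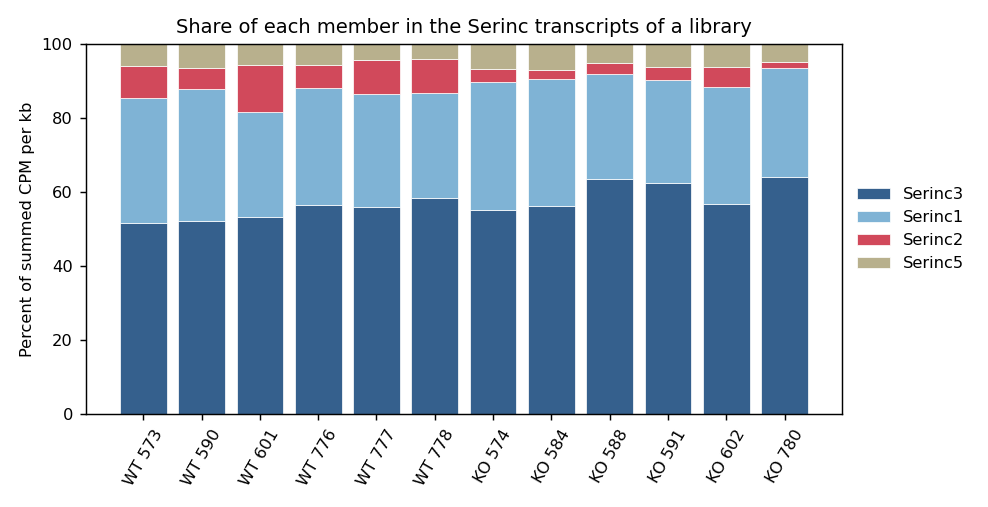
Percent of the summed Serinc CPM per kb (vertical axis) taken by each of 4 members in each of the 12 libraries. Serinc4 is not drawn, because its counts (at most 0.0060% of the sum) could not be read as a level. Serinc2 takes 5.68% to 12.7% in WT and 1.71% to 5.27% in KO.

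How the members varied together among mice of 1 genotype was described by pairs. After each genotype's mean was removed, Pearson's r over 12 libraries was 0.64 for Serinc1 with Serinc5 (permutation p = 0.050; Spearman's rho 0.55, permutation p = 0.10) and 0.62 for Serinc1 with Serinc3 (permutation p = 0.037; rho 0.71, permutation p = 0.010). None of the 6 pairs passed adjustment over the pairs (smallest adjusted permutation p = 0.15 for r and 0.062 for rho). Without the 2 libraries farthest from the median of Serinc1, KO 591 and WT 601, both r values were 0.54. In libraries 573 to 602 alone r was 0.87 for Serinc1 with Serinc5 and 0.27 for Serinc1 with Serinc3. Serinc2 had r values of -0.30 to -0.04 with the other 3 members (permutation p = 0.38 to 0.90; rho -0.34 to -0.01).

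The stretch of chromosome 4 around Serinc2 was examined next. The tested neighbours described here are Tinagl1, Pef1 and Col16a1 at lower coordinates and Zcchc17 and Snrnp40 at higher ones, with gaps of 36177 bases (Zcchc17) to 154211 bases (Col16a1). None of these 5 passed the edgeR threshold, where 3.82% of all tested genes did, and 1 of them (Snrnp40) had an unadjusted p under 0.05. The share of all tested genes with an unadjusted p under 0.05 was not counted. DESeq2 and limma-voom also called 0 of the 5, against 1172 and 573 of all 13706 tested genes. Tinagl1, a secreted matrix protein gene, averaged 14.5 ± 3.14 CPM in WT livers against 14.8 ± 1.79 CPM without A1cf (log2 fold change 0.03 ± 0.13, SE). Zcchc17 was at 14.5 ± 2.01 and 15.3 ± 0.87 CPM (0.07 ± 0.09). The splicing factor gene Snrnp40 had the smallest p of the 5, with 7.83 ± 0.90 CPM for WT against 8.99 ± 0.42 CPM for KO livers (difference 0.20 ± 0.09 on the log2 scale, SE; edgeR adjusted p = 0.23). Pef1 and the collagen gene Col16a1 had log2 fold changes of 0.02 and 0.26.

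**Figure D4:**
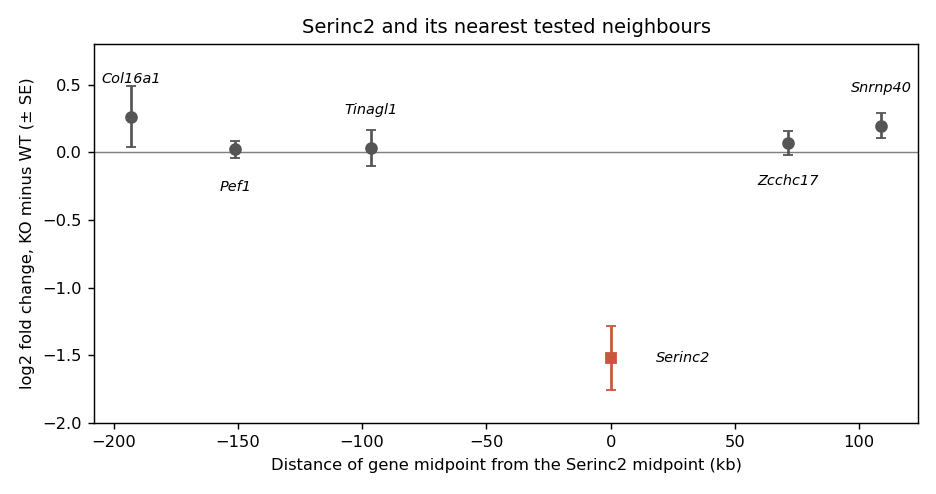
Log2 fold change of KO minus WT (vertical axis, bars ± SE) for Serinc2 (square) and 5 tested genes near it (circles), by distance of the gene midpoints in kb. The neighbours lie between 0.02 and 0.26, and Serinc2 at -1.52.

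Genes of the pathways in which SERINC proteins have been placed were taken as 5 lists. Over all 13706 tested genes DESeq2 called 1172 (548 higher) and limma-voom 573 (264 higher). The share of all tested genes with an unadjusted p under 0.05 was not counted, so nothing is read from such counts in the lists. None of 15 tested genes of serine synthesis, breakdown and transport passed in edgeR, 2 having an unadjusted p under 0.05, and their median log2 fold change was -0.03 against 0.01 over all tested genes. The smallest p-values were those of serine racemase Srr (58.7 ± 2.49 to 50.5 ± 5.09 CPM, log2 -0.22) and the amino acid transporter gene Slc38a4 (1458 ± 117 to 1796 ± 228 CPM, log2 0.30). DESeq2 called these 2 of the list (adjusted p = 0.044 and 0.026) and limma-voom 0, while their edgeR adjusted p-values were 0.11 and 0.13.

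None of 9 tested genes of phosphatidylserine metabolism passed in edgeR, 1 having an unadjusted p under 0.05 (median log2 fold change -0.04), and DESeq2 and limma-voom also called 0. Ptdss1, the synthase that makes phosphatidylserine from phosphatidylcholine, averaged 57.0 ± 5.80 CPM in WT livers against 48.1 ± 4.25 CPM in KO livers (difference -0.24 ± 0.08 on the log2 scale, SE; edgeR adjusted p = 0.11). Pla1a, a phospholipase acting on phosphatidylserine, had a log2 fold change of -0.17. Among 20 tested genes of sphingolipid synthesis edgeR, DESeq2 and limma-voom called 0, with 1 unadjusted edgeR p under 0.05 and a median of 0.08. The sphingomyelin synthase gene Sgms2 was at 39.7 ± 5.13 and 50.5 ± 7.80 CPM (difference 0.35 ± 0.11 on the log2 scale, SE; edgeR adjusted p = 0.093), and Sptlc2, a subunit of the enzyme that joins serine to palmitoyl-CoA, at 15.7 ± 0.90 and 17.2 ± 2.18 CPM (log2 0.13).

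Of 21 tested genes of lipid scramblases and flippases, 3 rose and none fell, where 1.72% of all tested genes rose; the median of the list was 0.04. Plscr2, a phospholipid scramblase family gene with a close copy in Plscr1, was at 20.96, 23.5, 20.3, 14.4, 21.8 and 19.7 CPM in WT 573 to WT 778 and at 44.8, 29.8, 43.8, 33.9, 30.9 and 36.9 CPM in KO 574 to KO 780. Every KO library lay above every WT library. Plscr2 rose by 0.87 ± 0.13 on the log2 scale (SE; edgeR adjusted p = 0.0025) and passed in each of the 12 fits that left out 1 library; in libraries 573 to 602 alone it was 0.77 with an edgeR adjusted p of 0.075. DESeq2 called 5 genes of this list and limma-voom 3, all higher, where they called 548 and 264 of all 13706 tested genes higher.

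Atp11a, a phospholipid flippase gene, rose by 1.07 ± 0.25 (log2, SE; edgeR adjusted p = 0.035), from 5.42 to 15.3 CPM in WT libraries to 13.1 to 19.8 CPM in KO libraries. Only WT 590, at 15.3 CPM, overlapped the KO range. In the 12 fits that left out 1 library Atp11a lay between 0.99 (without WT 777) and 1.38 (without WT 590, edgeR adjusted p = 0.00080). Plscr4 rose by 0.61 ± 0.15 (2.34 to 3.899 CPM in WT, 3.896 to 5.69 CPM in KO; edgeR adjusted p = 0.037). Atp11a passed in 2 and Plscr4 in 4 of the 12 fits that left out 1 library. In libraries 573 to 602 alone neither passed (log2 0.79 and 0.75; edgeR adjusted p = 0.26 and 0.10), nor did they without the low-count filter (log2 1.06 and 0.60; edgeR adjusted p = 0.091 and 0.051).

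Of 24 tested genes that restrict retroviruses or belong to the same antiviral families, 3 rose and none fell, where 1.72% of all tested genes rose; the list's median log2 fold change was 0.49 against 0.01 over all genes. DESeq2 called 6 of them and limma-voom 3, all higher, against 548 and 264 of all 13706 tested genes called higher by these tools. Slfn8 rose from 0.59 to 1.07 CPM in WT to 1.89 to 3.10 CPM in KO, without overlap (difference 1.53 ± 0.19 on the log2 scale, SE; edgeR adjusted p = 0.0010), and passed in all 12 fits that left out 1 library. Slfn9 (log2 1.39) and Trim30a (0.72) rose with edgeR adjusted p-values of 0.038 and 0.039 and overlapped between the groups; they passed in 5 and 2 of these 12 fits. Without the 3 libraries high in acute phase transcripts, Slfn9, Trim30a and Plscr4 did not pass, with log2 fold changes of 1.51, 0.67 and 0.54 over 9 libraries. Slfn8 (1.55), Plscr2 (0.98) and Atp11a (1.47) passed in that set (edgeR adjusted p = 0.0061, 0.0092 and 0.00076). In libraries 573 to 602 alone Slfn9 (1.15) and Trim30a (0.85) did not pass, and Slfn8 did (1.59; edgeR adjusted p = 0.035). The Schlafen genes Slfn8 and Slfn9 are close copies, so reads may be divided between them. Bst2, which encodes tetherin and holds virus particles at the cell surface, was at 85.9 ± 14.9 and 82.8 ± 19.9 CPM (log2 -0.05), and Apobec3 at 2.91 ± 0.73 and 2.94 ± 0.41 CPM (log2 0.01); these 2 were chosen after their values were seen.

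Markers of other liver cells were read beside these values. Over all tested genes, 51.8% had a log2 fold change above 0 and 1.72% were called higher by edgeR. DESeq2 called 548 and limma-voom 264 of all 13706 tested genes higher. The share of all tested genes with an unadjusted p under 0.05 was not counted, so such counts below stand without a background. For scale, an unadjusted edgeR p of 0.048 (Apoa1) had an adjusted p of 0.23. Summed over 11 Kupffer cell and macrophage markers, libraries held 134 to 222 CPM in WT and 138 to 491 CPM in KO, and 11 of 11 markers had a log2 fold change above 0. edgeR called 0 of these 11, with 10 unadjusted p-values under 0.05, limma-voom called 0 and DESeq2 called 3 higher (Clec4f, Csf1r and Cd5l). For 11 stellate cell markers the sums were 162 to 293 CPM in WT and 278 to 379 CPM in KO, with 11 of 11 fold changes above 0, of which edgeR called 2 and DESeq2 and limma-voom 3 each. For 10 sinusoidal endothelial markers they were 146 to 289 CPM and 232 to 282 CPM with 10 of 10 above 0 and 1 called by each tool, and for 7 hepatocyte markers 85364 to 107159 CPM and 77915 to 97929 CPM. Of the 7 hepatocyte markers, 6 had a log2 fold change below 0 and 1 above, and edgeR called 0, with 2 unadjusted p-values under 0.05. No marker of these 4 lists was at 0 in any library. The sums were far lower for T and NK cells (3.59 to 8.50 CPM in WT, 6.52 to 8.82 in KO), neutrophils (1.97 to 6.34 and 3.39 to 20.8) and B and plasma cells (3.86 to 12.9 and 3.94 to 6.87), with Ncr1 and Ly6g at 0 in at least 1 library. Of the 2, 3 and 5 tested markers of these lists edgeR called 0. DESeq2 and limma-voom called Ptprc higher (log2 0.64, edgeR adjusted p = 0.087). DESeq2 alone called Csf3r higher (log2 0.96, edgeR adjusted p = 0.058). Cholangiocyte markers summed to 34.5 to 121 CPM in WT, to 515 CPM in KO 602 and to 28.5 to 60.4 CPM in the 5 other KO libraries. Of 5 tested markers, 4 had a log2 fold change below 0. The sums were mostly Spp1 (59.9 ± 33.5 CPM in WT, 116 ± 191 in KO, SD), the marker above 0. Krt19, Krt7, Epcam and Sox9 averaged only 0.77 to 4.68 CPM each in KO. The sum in KO 602 is therefore not read as a level of cholangiocyte transcripts in general. The part of these cells in the values of Serinc2 and of the antiviral and scramblase genes was not tested.

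Genes whose pattern over the 12 libraries was most like that of Serinc2 were sought among 12205 named tested genes by Pearson's r of log2 CPM, as a description. Among the nearest were Perp (r = 0.93, a membrane protein gene of p53 responses), the biliverdin reductase gene Blvrb (0.93), Stxbp4 (0.92) and Cox19 (0.92). Perp and Blvrb were lower in KO as well (log2 -0.98 and -0.54), and their r values include this difference. With each genotype's mean removed, the nearest were Zfp688 (0.91), Cox19 (0.90) and Rnf126 (0.90), none of which passed in KO against WT. By the same measure Serinc1 was nearest to Tbc1d15, Sp3 and Kbtbd7 (0.97 to 0.96), Serinc3 to Xiap, Cpeb2 and Stag2 (0.97 to 0.96), and Serinc5 to Lrp11, Cpd and Ppp1r21 (0.96 to 0.93). All such r values were picked as the highest among 12205 genes, and how high unrelated genes would reach over 12 libraries was not tested. They also share libraries, depth scaling and the number ranges of the libraries.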

How the data were processed

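The authors' deposited values are raw counts: fragments assigned to exons of each GENCODE M8 gene name with featureCounts 1.5.0-p2, per the file headers; STAR, DESeq2 and mm10 are named in the submitters' processing notes. The deposited exonic length, another value per gene, was used for levels per kb. Groups came from the titles. The test was that of edgeR 4.0.16 in R 4.3.3 (filterByExpr with a minimum count of 10, TMM, robust quasi-likelihood test with genotype as the only term, Benjamini-Hochberg adjustment over 13706 genes, threshold 0.05). Standard errors are the log2 fold change divided by the square root of F, and log2 CPM used a prior count of 2. Levels per kb were compared with a pseudocount of 0.1. Members, lists and tests were chosen with earlier results of these data known. Named genes were all members, A1cf, the 3 nearest tested genes on each side of Serinc2, up to 4 called genes of each list (otherwise the 2 with the smallest p) and the genes with the highest Pearson r; some genes picked by this rule are not reported here. Simulated counts with known changes were used to check the fit. Alternatives used DESeq2 1.42.0, limma 3.58.1, other scalings, filters and library sets. Libraries within a group differed beyond sampling noise (chi-square over its degrees of freedom, 16.6 to 301). Each group is described as biological replicates. Coordinates are mm10 (GRCm38) throughout.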

Additional observations from a re-analysis of the deposited data

Results flagged for a closer look

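Among 74 groups of 6 values (the named genes in WT and in KO), 13 held 1 library far from the other 5 (gap over range above 0.625); chance alone flags about 1 in 20 groups. Genes named for their likeness to a member share its outlying library by choice. In WT 601, Serinc1 was low at 155 CPM (others 197 to 216), as were Tbc1d15 at 33.9 (46.1 to 48.9) and Sp3 at 18.1 (26.1 to 29.5), while Pef1 was high at 41.9 (34.4 to 36.7). In KO 602, Serinc2 was high at 14.6 CPM (others 5.95 to 9.12), as were Zcchc17 at 16.98 (14.7 to 15.2) and Rnf126 at 19.9 (13.6 to 15.8). In KO 780, the only KO library of its number range, Serinc3 was high at 375 CPM (others 235 to 267), with Tinagl1 at 18.2 (13.1 to 14.9), Xiap at 102 (66.6 to 75.6), Cpeb2 at 45.1 (13.2 to 21.2) and Stag2 at 59.0 (39.0 to 42.8). In WT 590, Atp11a was high at 15.3 CPM (others 5.42 to 8.66).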

How the results depend on the processing

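No paired analysis was run, because the titles name no pairs of WT and KO mice. Serinc2, whose contrast chose the family, had log2 fold changes of -1.78 to -1.34 over 22 other fits, given as a description. In libraries 573 to 602 alone it was -1.34 and no member was called (0 of 4, against 57 of all 13989 tested genes). Leaving out 1 library at a time gave -1.73 to -1.44. The number of called genes was 523, and 1172 in DESeq2, 57 in libraries 573 to 602, 206 without WT 573 and KO 588, and 266 (without WT 777) to 638 (without WT 590) leaving out 1 library; with library totals only, 266 were higher and 139 lower against 236 and 287. Of the 89 distinct list members 6 were called, against 13 in DESeq2, 1 in libraries 573 to 602, 2 without WT 573 and KO 588, and 2 (without KO 602) to 5 (without KO 584) leaving out 1 library. The sign of some uncalled values turned: Serinc3 to -0.01 without WT 601, -0.075 without KO 780 and -0.051 without the 3 libraries high in acute phase transcripts (an alternative chosen after seeing the data), while its highest values were 0.113 leaving out 1 library (WT 778), 0.16 in libraries 573 to 602 and 0.20 with the number range as covariate; Pef1 to -0.0201 with the number range as covariate and -0.0195 in libraries 573 to 602; Zcchc17 to -0.040 in libraries 573 to 602; Tinagl1 to -0.0022 without WT 590, -0.058 without WT 777 and -0.04 without KO 780 (highest 0.133 without WT 778). The cause of these changes was not tested, though smaller sets hold fewer libraries. In WT, 9 pairs stood in 1 order in every library, and 9 to 10 did under 11 alternatives, whichever member was higher. This count includes the pairs with Serinc4, which are not interpreted. In KO libraries and in WT libraries without length scaling the count was 10, with Serinc2 below Serinc5 in every library. Low counts limit Slfn8 and Slfn9.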
